A study of Mus musculus with 24 samples.

Results

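The effect of blast-mediated traumatic brain injury (bTBI) on the mouse retinal transcriptome was compared between 1 week and 5 weeks after injury, gene by gene, over the 14455 genes present in both deposited expression tables out of 16387 present in either. For each gene the quantity of interest was the difference of effects, that is, the log2 fold change between bTBI and sham retinas at 5 weeks minus the one at 1 week. A gene whose early change had gone by 5 weeks has a difference opposite in sign to its 1 week change, a gene whose change remained has a difference near 0, and a gene that changed later has a difference in the direction of its 5 week change. RNA-Seq was performed on 24 retinas of male C57BL/6J mice, 6 from each of the groups bTBI at 1 week, sham at 1 week, bTBI at 5 weeks and sham at 5 weeks. The bTBI mice were exposed in an enclosed chamber to a blast wave of 20 PSI at 13 to 17 weeks of age, and the retina studied came from the directly exposed eye. Sham mice were handled alike without the blast. The sample labels put the first timepoint at 8 days, which is called 1 week here.

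Retinal ganglion cells (RGCs) are the projection neurons of the retina, and their axons form the optic nerve. When these axons are injured, RGCs lower the transcripts of neurofilaments, ion channels and transmitter release proteins, and they raise a set of injury genes before some of the cells die. Microglia, the resident macrophages of the retina, and the macroglia, which are Müller glia and astrocytes, respond by changing shape and expression. Another component is the interferon response, in which a signal from interferon receptors passes through STAT and IRF transcription factors to a shared set of antiviral and antigen-presentation genes. Such responses can be transient or lasting, and the 2 timepoints allow them to be sorted.

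The retinas were sequenced to between 14301989 and 25158638 reads in the tabled genes, with a median of 19867822. The labels name the cell type as retinal ganglion cell, whereas the level of the rod gene *Sag* (arrestin of rods), at a median of 5867 CPM in sham retinas at 1 week, and a summed level of 96160 CPM or more for 19 rod genes in that group show whole retinal tissue. Several retinas stood apart and are named beside the results that rest on them. Among bTBI retinas at 1 week, replicate 2 had the mildest shift, replicates 5 and 6 held lens RNA, with a summed level of 4784 and 9354 CPM over 12 of 19 lens genes against 104 to 968 CPM in sham retinas, and replicate 3 held myelin RNA, with 3591 CPM over 5 of 10 oligodendrocyte genes against 121 to 173 CPM in sham retinas. Among bTBI retinas at 5 weeks, replicate 1 kept the strongest interferon signal. RNA was extracted with different kits at the 2 timepoints, so that timepoint and kit cannot be told apart in the levels, and 2244 genes (15.5%) had sham means that differed over 2-fold between the tables. Each timepoint had its own sham group, and only differences from that group are compared.

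The limma calls on the change between the timepoints were one-sided. In a limma fit of all 24 retinas, the difference of effects was called for 15 of 14455 genes at an adjusted p under 0.005, and in all 15 the effect was lower at 5 weeks than at 1 week, which is 0.104% of the genes tested. No gene had a called difference in the other direction (0 of 14455, 0.0%), although 413 genes with a higher effect at 5 weeks had an unadjusted p under 0.05, against 815 genes with a lower one. The edgeR test on whole reads also called 15 lower and 0 higher, and DESeq2 called 54 lower and 3 higher (*Kifc2*, *Glul* and *Car2*). At an adjusted p under 0.05, 105 genes had a lower effect at 5 weeks (0.726%) and 6 a higher one (0.0415%). The number depended on single retinas: without the mild bTBI replicate 2 at 1 week 111 genes were called, without bTBI replicate 1 at 5 weeks 43, and without sham replicate 4 at 1 week 31, and each of these sets contained all 15 genes. It was 9 without bTBI replicate 3 or 5 at 5 weeks. The median difference over all genes was 0.01 on the log2 scale.

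**Figure D1:**
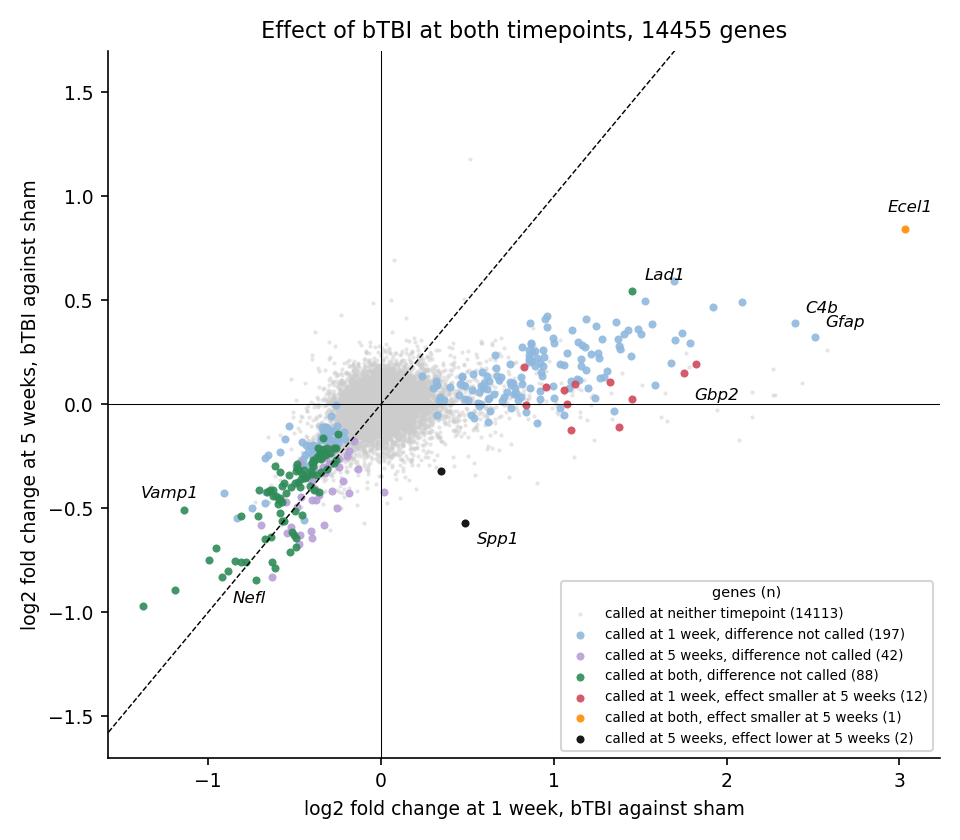
Effect of bTBI relative to sham, as log2 fold change, with the 1 week effect on the x axis and the 5 week effect on the y axis, for the 14455 genes in both tables, with 1 point per gene, coloured by the calls at an adjusted p under 0.005; the dashed line marks equal effects. Genes raised at 1 week lie far to the right of the line and close to 0 on the y axis. Genes lowered at 1 week lie closer to the line, and 130 of these 147 had an effect nearer to 0 at 5 weeks.

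Genes were sorted by their calls at each timepoint and by the call on the difference. At 1 week 189 genes were higher (1.27% of the 14922 tested) and 147 were lower (0.985%), and at 5 weeks 2 were higher (0.0126% of the 15920 tested) and 131 were lower (0.823%). Of the 336 calls at 1 week and 133 at 5 weeks in all, the number was 112 at 1 week without the 2 lens-rich retinas, 189 to 217 without sham replicate 2, 3 or 5 or bTBI replicate 5 or 6 of that timepoint, and 88 at 5 weeks without sham replicate 2. Of the genes in both tables, 12 had resolved, meaning that they were called at 1 week, were not called at 5 weeks and had a called difference against their 1 week change, and all 12 had been higher at 1 week. A single gene, *Ecel1*, had partly resolved: it was called at both timepoints with a smaller effect at 5 weeks. Persisting genes, called at both timepoints in the same direction without a called difference, numbered 87 lower and 1 higher (*Lad1*). Late genes, called only at 5 weeks with a called difference in that direction, were *Spp1* and *S100a10*. The remaining calls could not be placed, since the difference itself was not called: 137 higher and 60 lower at 1 week alone and 42 lower at 5 weeks alone. At an adjusted p under 0.05 for every call, 96 higher and 3 lower genes had resolved, and 215 lower and 6 higher genes persisted. Resolved genes numbered 106 without bTBI replicate 2 at 1 week, 40 without bTBI replicate 1 at 5 weeks, 26 without sham replicate 4 at 1 week and 7 without bTBI replicate 3 or 5 at 5 weeks. Persisting genes numbered 57 without sham replicate 2 at 1 week and 37 without the 2 lens-rich retinas.

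The genes raised at 1 week gave the clearest view of how much remained. The 151 such genes in both tables had a median log2 fold change of 0.92 at 1 week, the value they were chosen on, and of 0.13 at 5 weeks, in other mice, with the middle of the distribution between 0.06 and 0.26. Their summed effect at 5 weeks was 16.6% of that at 1 week, and 10.2% without bTBI replicate 1 at 5 weeks. The difference was below 0 for all 151, it was called at 0.05 for 83 of them, and its 95% interval left out 0 for 150, the exception being *Impg2*, the only 1 of the 151 that kept over 50% of its effect. The small remainder leaned one way, since 135 of the 151 were still above sham at 5 weeks (121 without replicate 1), and 9 had an adjusted p under 0.05 there (*Ecel1*, *Lad1*, *Pros1*, *Fgf2*, *Stat3*, *Ctss* and *Impg2*, with *Cd44* and *Edn2* named after their values were seen). The 147 genes lowered at 1 week kept more of their effect: their median was -0.44 at 1 week and -0.30 at 5 weeks, all 147 were still below sham, and the summed effect at 5 weeks was 72.4% of that at 1 week (67.9% without bTBI replicate 1 at 5 weeks, 79.5% without the 2 lens-rich retinas). They also moved towards sham, since the difference was above 0 for 130 and below 0 for 17. Its 95% interval left out 0 for 43, and it was called at 0.05 for 1. Chosen in the reverse order, the 131 genes lowered at 5 weeks had a median of -0.39 at 5 weeks and of -0.45 at 1 week, and 128 of them were below sham at 1 week; the 3 exceptions were *Spp1*, *S100a10* and *Fabp5*, the last named after its values were seen. A gene picked on 1 timepoint tends to show its larger value there, so that these percentages describe the genes called and are not estimates of decay. The difference also contains the 1 week effect on which these genes were chosen. The choice thus pushes its sign and interval towards a smaller effect at 5 weeks, and these counts are a description and not a test.

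The same contrast was visible retina by retina. A score was taken as the mean log2 shift of a set of genes from the sham mean of the same timepoint. For the 151 genes raised at 1 week, bTBI retinas at 1 week scored from 0.43 (replicate 2) to 1.17 with a median of 1.09, and sham retinas from -0.12 to 0.18. At 5 weeks bTBI retinas scored from 0.06 to 0.48 with a median of 0.10, and sham retinas from -0.06 to 0.06; the 0.48 belonged to replicate 1. For the 147 genes lowered at 1 week, the scores ran from -0.61 to -0.24 in bTBI retinas at 1 week and from -0.46 to -0.20 at 5 weeks, and no sham retina was below -0.07 at either timepoint. Both gene sets were chosen on these 1 week retinas, so that their separation from sham at 1 week follows from the choice, and only the 5 week scores are independent of it. At 5 weeks the lowered genes stood apart from sham in all 6 bTBI retinas, and for the raised genes the lowest bTBI score of 0.058 lay just above the highest sham score of 0.055.

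**Figure D2:**
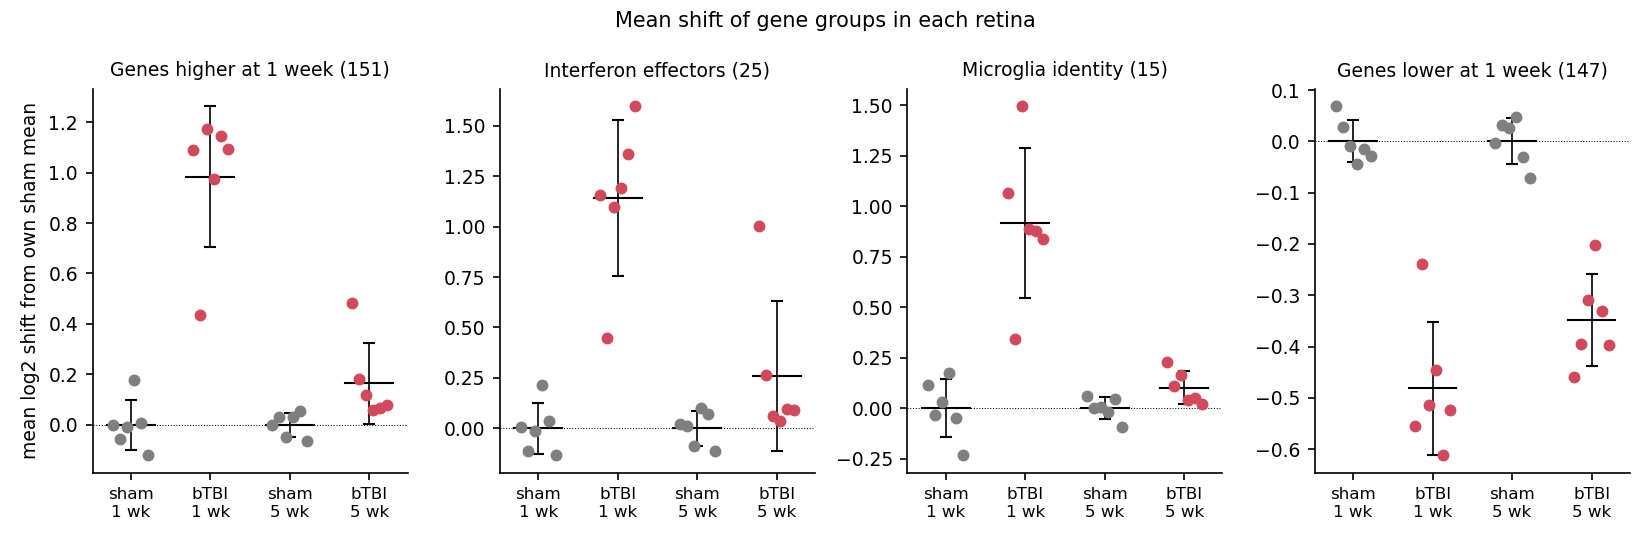
Mean log2 shift of each retina from the sham mean of its own timepoint, for the 151 genes higher at 1 week, 25 interferon-stimulated effectors, 15 microglia identity genes and 147 genes lower at 1 week; 1 point is 1 retina, the line is the mean and the bar the SD (n = 6). Raised genes score far lower at 5 weeks than at 1 week, with bTBI replicate 1 highest and its interferon score at 1.00, and lowered genes remain between -0.46 and -0.20.

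Interferon-stimulated genes carry in their promoters the interferon-stimulated response element, a pair of GAAA repeats set apart by 2 bases. The letters GAAANNGAAA were searched on both strands from 250 bases before to 50 bases after the start sites of RefSeq (GRCm38.p6), counting a gene once. They were present in 4.0% of all 27025 genes with such a window and in 3.44% of the 10623 of these genes in both tables, in 24.2% of the 120 genes raised at 1 week that had a window and in 5.0% of the 100 lowered ones. All 7 measured guanylate-binding and immunity-related GTPases with a window held them, as did 10 of 19 interferon-stimulated effectors, against 2 of 16 interferon signalling genes. Among lists not tied to interferon the number ran from none of 9 microglia identity genes and 11 pan-RGC markers to 3 of 18 RGC transcription factors, 2 of 14 SNARE genes and 3 of 22 potassium channel genes. A match is a description of letters and not of a bound site. Windows of 60 bases around the match are shown for 4 genes whose levels follow, on the strand of the gene, with the matching letters of either strand in capitals. *Gbp2* lies on the plus strand (chr3:142620579-142620638), *Ifit1* on the plus strand (chr19:34640760-34640819), *Isg15* on the minus strand (chr4:156200862-156200921) and *Rsad2* on the minus strand (chr12:26456538-26456597).
Gbp2: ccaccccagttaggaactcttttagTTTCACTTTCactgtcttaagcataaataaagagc
Ifit1: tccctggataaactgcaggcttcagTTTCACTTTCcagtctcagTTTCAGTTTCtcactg
Isg15: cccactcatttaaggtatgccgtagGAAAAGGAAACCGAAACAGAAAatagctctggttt
Rsad2: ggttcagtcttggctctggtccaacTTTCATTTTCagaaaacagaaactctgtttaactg
The first match begins 59 bases before the RefSeq start site in *Gbp2*, 104 in *Ifit1*, 78 in *Isg15* and 120 in *Rsad2*; *Ifit1* held 2 matches and *Isg15* 3 that overlap each other. In *Gbp2* and *Ifit1* the RefSeq start site lies downstream of the GENCODE gene start printed with the levels, so that the *Gbp2* match falls just inside the GENCODE gene.

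Interferon effectors rose together at 1 week and were closer to sham at 5 weeks, with replicate 1 as the exception. Of the 25 measured effectors, 23 were called higher at 1 week and none at 5 weeks (limma; 11 had an unadjusted p under 0.05 there, and edgeR and DESeq2 called 0), and the list median went from 1.08 to 0.26 (0.13 without bTBI replicate 1 at 5 weeks) against medians of -0.002 and 0.001 over all genes. Their differences were all below 0, with 8 called at 0.05 and none at 0.005. *Ifit1* (chr19:34640871-34650009), whose protein binds foreign RNA, measured 4.21 to 6.79 CPM in sham retinas at 1 week with a median of 5.74, and 9.61 to 42.2 CPM with a median of 30.4 after bTBI. At 5 weeks sham retinas measured 3.33 to 4.59 CPM with a median of 3.66, and bTBI retinas 3.997 to 15.3 CPM with a median of 4.61. The highest of these was replicate 1, and 3 of the 6 were above every sham retina. The *Ifit1* difference was -1.60 ± 0.36 (SE, limma, n = 6 per group, adjusted p = 0.032), and the 5 week effect of 0.49 fell to 0.24 without that retina. *Isg15*, a ubiquitin-like modifier, went from 1.50 at 1 week to 0.34 at 5 weeks (difference -1.16 ± 0.25, limma adjusted p = 0.024), *Rsad2*, which encodes the antiviral enzyme viperin, from 1.45 to 0.23 (difference -1.21 ± 0.24, limma adjusted p = 0.012), and *Oasl2* from 1.92 to 0.47 (difference -1.46 ± 0.34, limma adjusted p = 0.036). The kinase gene *Eif2ak2* and the RNA sensor gene *Ddx58* were called at 1 week, at 0.94 and 0.86, and stood at 0.26 each at 5 weeks, without a called difference even at 0.05. Without bTBI replicate 1 the 5 week effects were 0.15 for *Isg15*, 0.15 for *Rsad2*, 0.18 for *Oasl2*, 0.13 for *Eif2ak2* and 0.14 for *Ddx58*.

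Guanylate-binding proteins and immunity-related GTPases defend cells against intracellular pathogens. Of 10 measured, 9 were called higher at 1 week and none at 5 weeks (limma; 6 had an unadjusted p under 0.05 there, and edgeR and DESeq2 called 0), and the median went from 1.17 to 0.29 (0.16 without bTBI replicate 1 at 5 weeks). *Gbp2* (chr3:142620602-142638008) was the member with a called difference. Its level was 6.04 to 9.51 CPM in sham and 13.6 to 33.3 CPM in bTBI retinas at 1 week, with medians of 6.98 and 30.6, and 2.99 to 5.83 CPM in sham and 3.57 to 7.23 CPM in bTBI retinas at 5 weeks, with medians of 4.44 and 4.67. The groups did not overlap at 1 week and overlapped broadly at 5 weeks. The *Gbp2* log2 fold change was 1.75 ± 0.17 at 1 week and 0.15 ± 0.13 at 5 weeks, and the difference was -1.60 ± 0.23 (SE, limma adjusted p = 0.00065), with a 95% interval from -2.08 to -1.12. The family members *Irgm1* and *Irgm2* went from 1.18 and 1.17 to 0.27 and 0.29. Without bTBI replicate 1 the 5 week effects were 0.05 for *Gbp2*, 0.12 for *Irgm1* and 0.15 for *Irgm2*, and those of *Irf9* and *Irf7*, given next, were 0.19 and 0.04. Upstream, *Irf9*, a part of the complex that binds the response element, went from 1.37 to 0.31 (difference -1.06 ± 0.20, limma adjusted p = 0.008), and *Irf7*, which amplifies the response, from 1.14 to 0.12 (difference -1.03 ± 0.21, limma adjusted p = 0.017). Of 17 measured interferon signalling genes 4 were called higher at 1 week and none at 5 weeks, and the median difference was -0.15.

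Antigen presentation by class I molecules contributed several of the called differences. Of 17 measured class I and peptide loading genes, 9 were higher at 1 week and none at 5 weeks (limma; 0 had an unadjusted p under 0.05 there, and edgeR and DESeq2 called 0), 3 had a called difference and 6 passed 0.05, and the median went from 0.63 to 0.07 (0.01 without bTBI replicate 1 at 5 weeks). *H2-D1*, a class I heavy chain gene, measured 67.7 to 87.4 CPM in sham and 93.2 to 152 CPM in bTBI retinas at 1 week, with medians of 72.6 and 141, and 49.1 to 56.6 CPM in sham and 46.2 to 59.1 CPM in bTBI retinas at 5 weeks, with medians of 51.4 and 53.3. All 6 bTBI retinas exceeded every sham retina at 1 week, and the ranges overlapped at 5 weeks. The differences were -0.84 ± 0.12 for *H2-D1* (limma adjusted p = 0.00052), -0.99 ± 0.17 for *H2-K1* (0.0025) and -1.49 ± 0.21 for *H2-Q6* (0.00052). Class I genes are near-identical copies of one another, and how reads were shared among them is uncertain. *Psmb8*, a catalytic subunit of the immunoproteasome that cuts peptides for class I molecules, went from 1.13 to 0.10 (0.04 without bTBI replicate 1 at 5 weeks; difference -1.03 ± 0.17, limma adjusted p = 0.0025). *Psmb9*, another subunit, and *Psme2*, a part of the proteasome activator, had differences of -0.67 and -0.26 that were not called. Class II genes were sparse: *H2-Ab1* measured 0.57 ± 0.20 at 1 week and -0.07 ± 0.13 at 5 weeks, neither called.

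**Figure D3:**
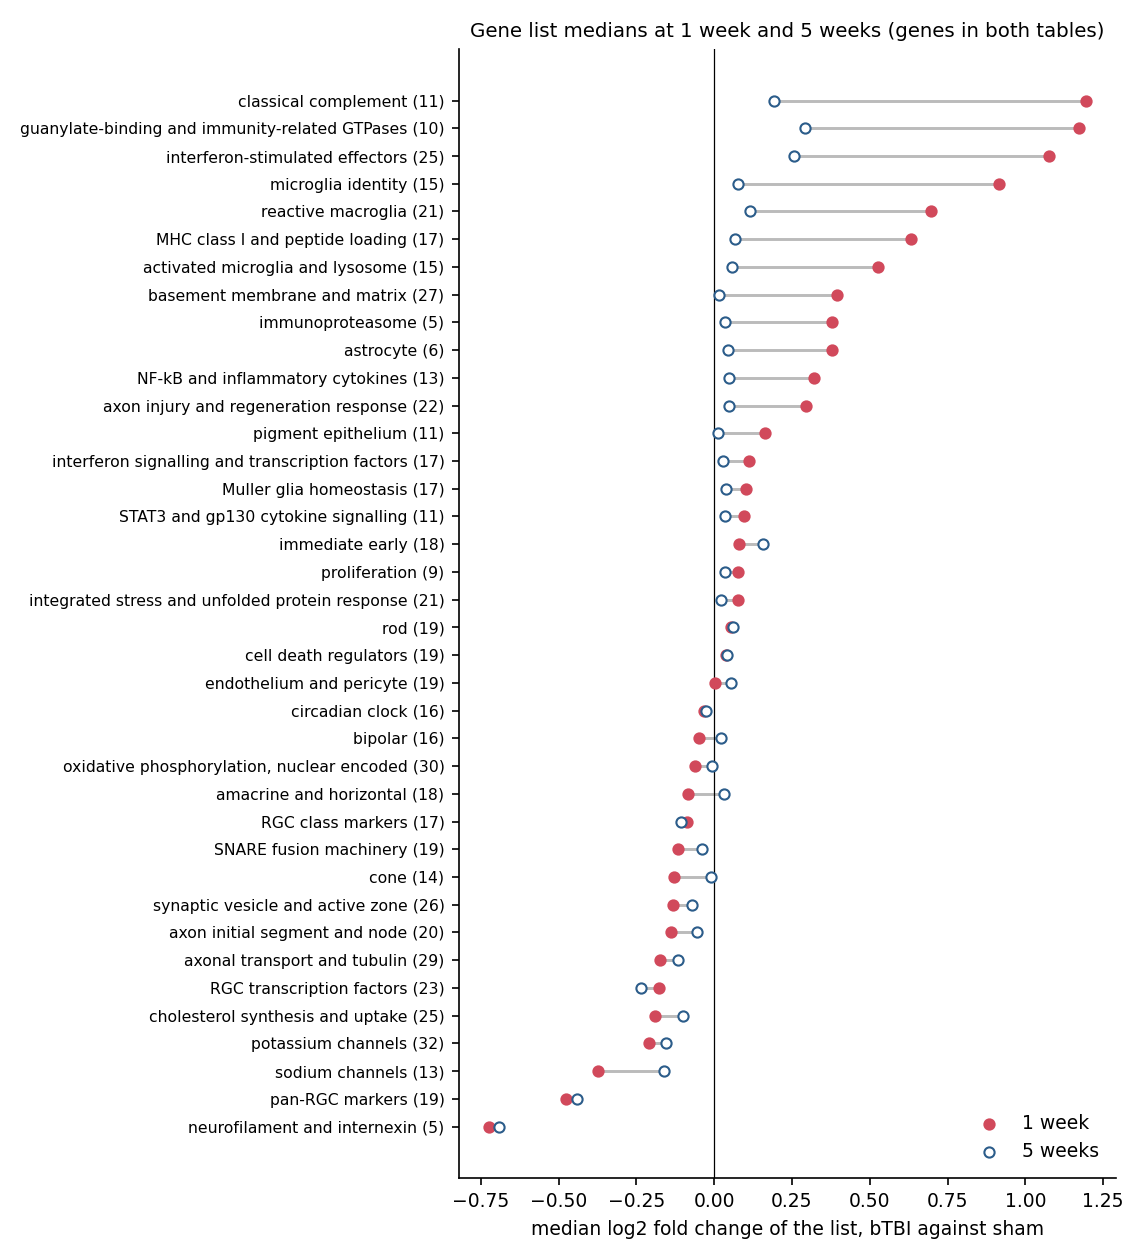
Median log2 fold change of 38 gene lists at 1 week (filled) and 5 weeks (open), with the number of genes in both tables in brackets; lists under 5 genes and the lens and oligodendrocyte lists are not drawn. Immune and glial lists move from as high as 1.20 to 0.29 or less, whereas the pan-RGC and neurofilament lists hold nearly the same place.

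Microglial transcripts also rose at 1 week and were close to sham at 5 weeks, when the retina scores of 15 identity genes ran from 0.02 to 0.23 in bTBI and from -0.09 to 0.06 in sham retinas. Of these 15 genes, 9 were higher at 1 week and none at 5 weeks (limma; 2 had an unadjusted p under 0.05 there, and edgeR and DESeq2 called 0), and the median went from 0.92 to 0.08 (0.94 at 1 week without the lens-rich retinas, 0.82 without the myelin-rich one); 1 had a called difference and 8 passed 0.05. In bulk tissue, fewer cells of a type and less RNA per cell cannot be told apart, here or in any list below. *Selplg*, a microglial surface ligand for selectins, measured 5.58 to 7.54 CPM in sham and 11.5 to 21.7 CPM in bTBI retinas at 1 week, with medians of 6.29 and 13.4. At 5 weeks it measured 2.32 to 3.91 CPM in sham and 2.54 to 3.66 CPM in bTBI retinas, with medians of 3.21 and 3.09. The bTBI range thus lay wholly above sham at 1 week and within it at 5 weeks, and the difference was -1.07 ± 0.17 (SE, limma adjusted p = 0.0015). *Tmem119*, a marker of resident microglia, went from 1.04 to -0.02 (difference -1.06 ± 0.21, limma adjusted p = 0.011), and *Cx3cr1*, the fractalkine receptor of microglia, from 1.18 to 0.17 (difference -1.02 ± 0.19, limma adjusted p = 0.0082). Of 18 peripheral leukocyte markers 17 were in neither table, so that this list cannot show whether blood leukocytes were present. The remaining gene, *Lyve1*, measured 12.5 to 14.01 CPM in bTBI and 12.6 to 15.8 CPM in sham retinas at 1 week. Leukocyte genes outside the list were called higher in the 1 week table alone, such as *Ptprc* at 0.92 and *Csf3r* at 1.14, named after their values were seen. Blood cells and microglia cannot be told apart as their source. Of 15 activated microglia and lysosome genes, 4 were higher at 1 week, and *Unc93b1*, which carries nucleic acid sensing receptors to the endosome, had a called difference (1.10 to -0.12, difference -1.22 ± 0.21, limma adjusted p = 0.0039). *Pld4*, an endosomal nuclease of myeloid cells, went from 1.45 to 0.02 (difference -1.43 ± 0.22, limma adjusted p = 0.00083). *Ctss*, a lysosomal protease, kept part of its rise, at 1.57 ± 0.20 and 0.39 ± 0.08, and its bTBI and sham values did not overlap at either timepoint.

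Classical complement genes were also higher at 1 week. Of 11 measured genes 7 were higher at 1 week and none at 5 weeks (limma; 4 had an unadjusted p under 0.05 there, and edgeR and DESeq2 called 0), and the median went from 1.20 (1.01 without the myelin-rich replicate 3, which had the highest score) to 0.19; 1 had a called difference and 5 passed 0.05. *C1qc* (chr4:136889804-136893065), a chain of the C1q recognition molecule that tags synapses and debris, measured 7.07 to 11.5 CPM in sham and 14.9 to 67.4 CPM in bTBI retinas at 1 week, with medians of 8.46 and 33.0, and 3.22 to 4.84 CPM in sham and 3.55 to 6.08 CPM in bTBI retinas at 5 weeks, with medians of 3.93 and 4.82. The *C1qc* difference was -1.63 ± 0.28 (limma adjusted p = 0.0039) and was called in 6 of 24 fits that left out a retina, so that it stood close to the threshold. The other chains *C1qa* and *C1qb* had differences of -1.39 ± 0.31 and -1.48 ± 0.29 (limma adjusted p = 0.031 and 0.011). *C4b*, whose product is deposited after C1q is engaged, went from 2.40 ± 0.32 to 0.39 ± 0.16 (0.21 without bTBI replicate 1 at 5 weeks) (difference -2.01 ± 0.39, limma adjusted p = 0.0099). At 5 weeks 3 bTBI retinas still exceeded the sham range of *C1qc*, as did 4 for *C1qa*.

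Many genes of reactive macroglia were higher at 1 week, as were fewer of the STAT3 and gp130 pathway, where 3 of 11 were called at 1 week and the median was 0.10 and then 0.04. Of 21 measured reactive macroglia genes 11 were higher at 1 week, none was higher at 5 weeks (limma; 7 had an unadjusted p under 0.05 and edgeR called 0, but DESeq2 called 3) and 1 was lower (*S100a10*), and the median went from 0.70 to 0.11. *Gfap* (chr11:102887336-102900912), the intermediate filament of astrocytes and of stressed Müller glia, measured 15.4 to 27.1 CPM in sham and 57.7 to 738 CPM in bTBI retinas at 1 week, with medians of 23.5 and 113, and 7.53 to 11.4 CPM in sham and 8.45 to 22.1 CPM in bTBI retinas at 5 weeks, with medians of 10.4 and 12.3. The 738 CPM belonged to the myelin-rich replicate 3, and the 22.1 CPM to replicate 1 of the later group. The *Gfap* difference was -2.19 ± 0.51 (SE, limma adjusted p = 0.036), and without the myelin-rich retina it was -1.69 with an adjusted p of 0.0039. Its 5 week effect of 0.32 was 0.17 without bTBI replicate 1. The filament genes *Vim* and *Nes* went from 0.78 and 1.06 to 0.05 and 0.19. *Fgf2*, a survival factor made by stressed Müller glia and photoreceptors, went from 1.26 ± 0.17 to 0.24 ± 0.06 (difference -1.01 ± 0.19, limma adjusted p = 0.0072) and its bTBI and sham values did not overlap at either timepoint. *Stat3*, the transcription factor that gp130 receptors activate, measured 55.9 to 65.6 CPM in sham and 84.4 to 135 CPM in bTBI retinas at 1 week, with medians of 62.3 and 107, and 64.7 to 74.7 CPM in sham and 73.2 to 83.1 CPM in bTBI retinas at 5 weeks, with medians of 69.1 and 77.6. Its 5 week effect was 0.18 ± 0.04 (limma adjusted p = 0.022) against 0.83 ± 0.09 at 1 week, and the difference was -0.65 ± 0.11 (limma adjusted p = 0.0019). *Osmr*, the oncostatin M receptor, and *Socs3*, the feedback inhibitor of the pathway, had differences of -0.56 ± 0.12 and -0.85 ± 0.20 that passed 0.05 but were not called. *Pros1*, the bridging ligand by which phagocytes recognise dying cells, was less reduced, at 0.95 ± 0.13 and 0.41 ± 0.09, and its difference of -0.54 ± 0.17 was not called (95% interval -0.89 to -0.19).

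*Ecel1* (chr1:87147655-87156521, minus strand), a membrane peptidase that injured neurons switch on, had, on the log2(CPM + 1) scale and among the genes in both tables, the highest effect of all called genes at both timepoints. It measured 1.15 to 2.01 CPM in sham and 7.82 to 50.0 CPM in bTBI retinas at 1 week, with medians of 1.47 and 19.2. At 5 weeks it measured 0.467 to 1.12 CPM in sham and 1.69 to 3.03 CPM in bTBI retinas, with medians of 0.777 and 2.21. The ranges did not overlap at either timepoint, and the ratio of group means fell from 14.7 to 2.77. The log2 fold change was 3.03 ± 0.29 and then 0.84 ± 0.12 (limma adjusted p = 7.9e-05 and 0.00024), and the difference was -2.19 ± 0.33 (limma adjusted p = 0.00081; 0.022 in edgeR on whole reads). *Lad1* (chr1:135818598-135833342), which encodes a component of anchoring filaments, was the other gene called higher at both timepoints at an adjusted p under 0.005 (limma). It measured 0.441 to 1.54 CPM in sham and 1.18 to 8.05 CPM in bTBI retinas at 1 week, with medians of 0.839 and 4.21. At 5 weeks it measured 1.16 to 1.71 CPM in sham and 2.06 to 3.27 CPM in bTBI retinas, with medians of 1.43 and 2.47. At 1 week 1 bTBI retina lay within the sham range, and at 5 weeks none did. The *Lad1* difference was -0.91 ± 0.30 and was not called, with an interval from -1.51 to -0.30. Of 22 measured axon injury genes, 3 were higher and 1 lower at 1 week and 1 was higher and 1 lower at 5 weeks. *Atf3*, the early transcription factor of injured neurons, went from 1.16 to 0.22 (difference -0.94 ± 0.20, limma adjusted p = 0.024), and *Hrk*, a pro-apoptotic factor induced in axotomised RGCs, from 1.04 to 0.19 (difference -0.84 ± 0.22, not called).

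A further 2 called differences concerned transcripts of little known function. *6430562O15Rik* had the smallest p of all genes, with 0.95 ± 0.09 at 1 week, 0.08 ± 0.06 at 5 weeks and a difference of -0.87 ± 0.11 (limma adjusted p = 0.00031). *Gm15983* had a difference of -1.22 ± 0.17 (limma adjusted p = 0.00052); it is an antisense gene that overlaps *Eef2kmt*, and without knowledge of the strand setting of the counting its reads cannot be told apart from those of its partner. The authors dropped genes of low counts within each timepoint, and 38 genes called higher at 1 week, and no gene called lower, were in that table alone. *Aif1*, which encodes the microglial protein IBA1, was among them with a log2 fold change of 1.07 (limma adjusted p = 0.00028), and the difference between the timepoints could not be computed for these 38. Of 1465 genes in the 5 week table alone, none was called by limma, and 32 higher and 39 lower genes had an unadjusted p under 0.05.

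**Figure D4:**
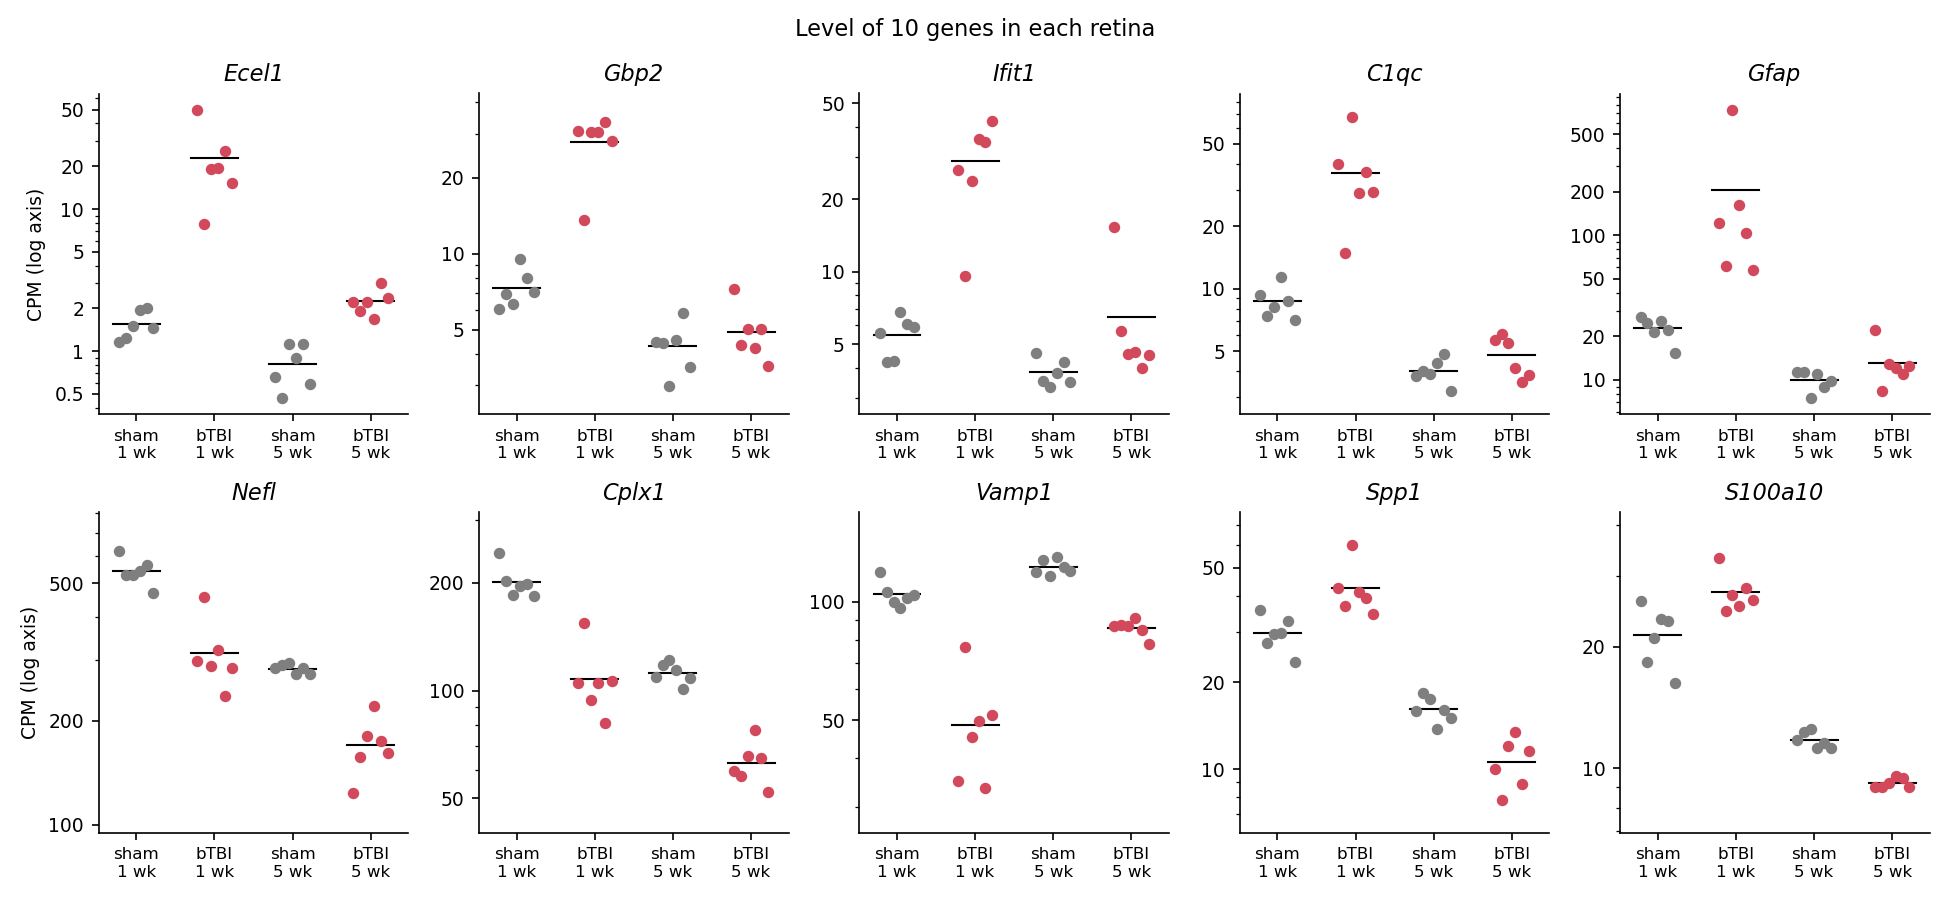
CPM of 10 genes in each retina on log axes; 1 point is 1 retina and the line is the group mean (n = 6). The upper row shows genes raised at 1 week and mostly back at the sham level at 5 weeks, except *Ecel1*; the lower row shows genes below sham at both timepoints (*Nefl*, *Cplx1*, *Vamp1*) and genes below sham at 5 weeks only (*Spp1*, *S100a10*).

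Markers and structural genes of RGCs were below sham at both timepoints. Of 19 pan-RGC markers 17 were lower at 1 week and 16 at 5 weeks, and the same 16 counted as persisting; the list median was -0.48 and then -0.44, and the median difference was 0.02. Neurofilaments are the structural polymers of large axons. Of the 5 neurofilament and internexin genes, 4 were lower at 1 week and 5 at 5 weeks. *Nefl* (chr14:68083863-68089095), the light chain, measured 469 to 619 CPM in sham and 236 to 458 CPM in bTBI retinas at 1 week, with medians of 536 and 294, and 273 to 294 CPM in sham and 123 to 221 CPM in bTBI retinas at 5 weeks, with medians of 284 and 168. The bTBI means were 58.0% and 59.9% of sham, no bTBI retina reached the sham range at either timepoint, and the difference was 0.05 ± 0.16 with a 95% interval from -0.27 to 0.38. The middle chain *Nefm* had -0.72 ± 0.09 and -0.84 ± 0.08, and the heavy chain *Nefh* had -0.95 ± 0.12 and -0.69 ± 0.08. *Tubb3*, the neuronal tubulin used to mark RGCs, measured 173 to 191 CPM in sham and 116 to 144 CPM in bTBI retinas at 1 week, with medians of 178 and 131, and 91.5 to 101 CPM in sham and 58.4 to 77.7 CPM in bTBI retinas at 5 weeks, with medians of 98.7 and 67.5. Its difference was -0.08 ± 0.08 (interval -0.25 to 0.10). *Pvalb*, a calcium buffer of RGC types, fell to 43.3% of sham at 1 week and 50.9% at 5 weeks, and its difference of 0.30 ± 0.22 had a wide interval, from -0.15 to 0.75. *Chrna6*, a nicotinic receptor subunit of RGCs, had -0.62 ± 0.08 and -0.44 ± 0.06. *Gap43*, a growth cone protein, was a pan-RGC marker that passed at neither timepoint, at -0.05 ± 0.07 and -0.23 ± 0.07.

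Transcription factors and class markers of RGCs were counted separately. Of 23 RGC transcription factors 2 were lower at 1 week and 4 at 5 weeks, with medians of -0.18 and -0.23 and 1 persisting gene, and of 17 class markers none was called at 1 week and 1 was lower at 5 weeks (*Spp1*), with medians of -0.09 and -0.11. The POU-domain factor genes that define RGCs, named after their values were seen, were among the 4: *Pou4f1* had -0.49 ± 0.07 at 1 week and -0.69 ± 0.10 at 5 weeks and was the persisting one, *Pou4f2* had -0.48 ± 0.13 and -0.49 ± 0.08, and *Pou4f3* had -0.55 ± 0.15 and -0.62 ± 0.11. The factor gene *Irx3* had a difference of -0.28 ± 0.18 that was not called.

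Part of the transmitter release machinery was lower at both timepoints. SNARE proteins fuse synaptic vesicles with the membrane, and complexins clamp them. Of 19 such genes 5 were lower at 1 week and 5 at 5 weeks, and the same 5 were persisting, while the list median was -0.12 and -0.04. *Cplx1* (chr5:108518554-108550024), the complexin of RGCs and conventional synapses, measured 183 to 242 CPM in sham and 81.2 to 154 CPM in bTBI retinas at 1 week, with medians of 196 and 105, and 101 to 122 CPM in sham and 52.1 to 77.7 CPM in bTBI retinas at 5 weeks, with medians of 112 and 62.2. Its effects were -0.92 ± 0.12 and -0.83 ± 0.07, and the difference was 0.09 ± 0.14. *Cplx3*, the complexin of ribbon synapses, measured -0.08 ± 0.06 and -0.01 ± 0.04. *Snap25* had -0.33 ± 0.06 and -0.16 ± 0.03, and 6 of 6 bTBI retinas were below every sham retina at both timepoints. *Vamp1* (chr6:125215551-125245964), a vesicle SNARE of fast-firing neurons, had the largest difference among the persisting genes that were lower at both timepoints. It measured 96.5 to 119 CPM in sham and 33.6 to 76.6 CPM in bTBI retinas at 1 week, with medians of 103 and 47.6. At 5 weeks the values were 116 to 130 CPM and 78.1 to 91.0 CPM, with medians of 121 and 86.8. The bTBI mean was thus 46.5% of sham at 1 week and 70.0% at 5 weeks, and the difference of 0.63 ± 0.16 had an interval from 0.30 to 0.96 but was not called (limma adjusted p = 0.063). Of 26 further synaptic vesicle and active zone genes, 7 were lower at 1 week, 6 at 5 weeks and 5 at both.

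Ion channel genes, which set the firing of RGCs, were also lower at both timepoints in part. Of 13 sodium channel genes 6 were lower at each timepoint and the same 6 were persisting, while the median went from -0.37 to -0.16. *Scn1a* measured 82.3 to 108 CPM in sham and 48.8 to 81.5 CPM in bTBI retinas at 1 week, with medians of 95.6 and 57.3, and 65.3 to 78.6 CPM in sham and 45.8 to 66.3 CPM in bTBI retinas at 5 weeks, with medians of 76.4 and 55.1. At 5 weeks 5 of 6 bTBI retinas were below every sham retina, and the difference was 0.29 ± 0.14 (interval 0.01 to 0.57, not called). *Scn8a*, the main channel of the axon initial segment, was called at neither timepoint, at -0.38 ± 0.08 and -0.06 ± 0.04, with a difference of 0.32 ± 0.09 (limma adjusted p = 0.12). Of 32 potassium channel genes 5 were lower at 1 week, 6 at 5 weeks and 4 at both. The channel-interacting protein gene *Kcnip4* went from -0.61 ± 0.08 to -0.30 ± 0.05, with a difference of 0.32 whose interval lay above 0 but which was not called. Among 20 axon initial segment and node genes, 6 were lower at 1 week and 5 at 5 weeks, and among 29 axonal transport and tubulin genes 3 and 5 were.

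The intervals of the difference show how precisely it was measured in the persisting genes. Over the 87 genes lower at both timepoints the median effect was -0.49 at 1 week and -0.39 at 5 weeks, and the median difference was 0.10, with a range from -0.19 to 0.63. The 95% interval of the difference held 0 for 75 genes and lay above 0 for 12, and for none did it lie below 0. The 87 were chosen by their calls at both timepoints, so that a gene back at the sham level could not be among them. The choice favours a small difference, and these counts describe the class and do not test persistence. The median half-width of the interval was 0.20, and for 78 genes the whole interval lay within 0.5 of 0. That margin is about the size of the median 1 week effect. For genes with a smaller 1 week effect a full return to sham would also lie within it, so that this count cannot tell a lasting effect from a return. A complete return to sham would have needed a difference equal and opposite to the 1 week effect. No unadjusted interval is a call, and a difference that was not called does not show that the effects were equal.

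**Figure D5:**
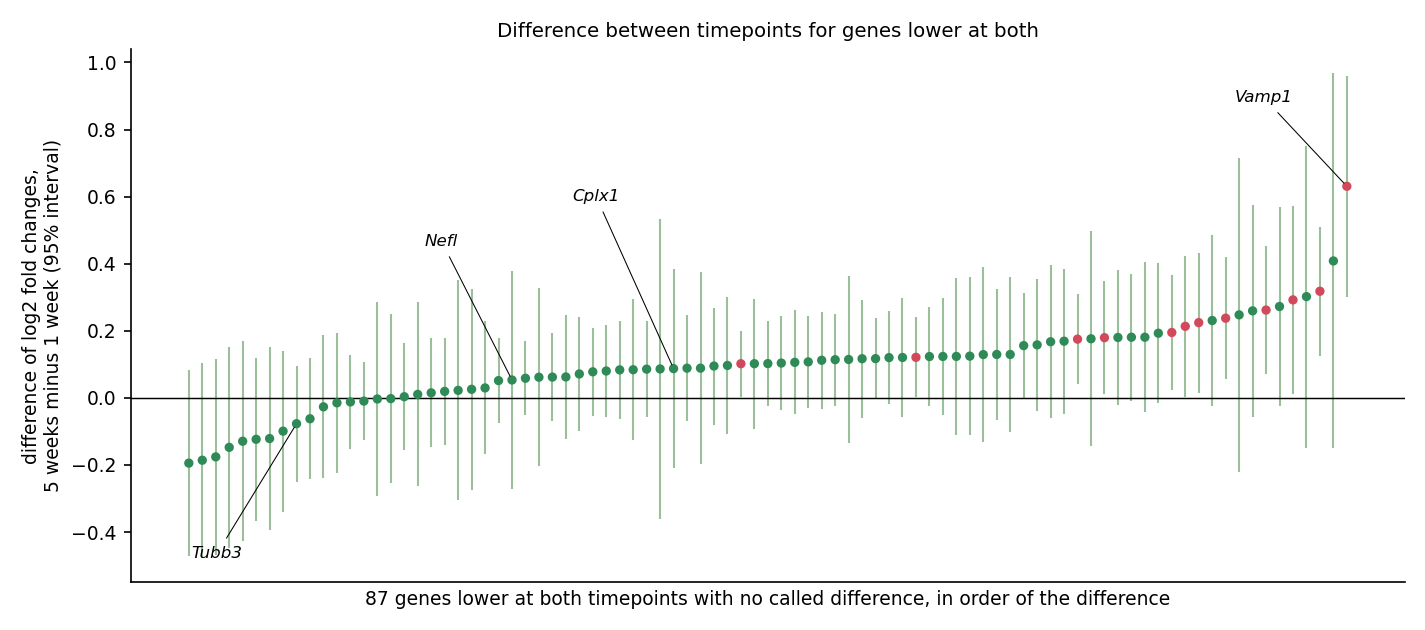
Difference of log2 fold changes, 5 weeks minus 1 week, for the 87 genes lower at both timepoints, in order of size; bars are 95% intervals from limma without adjustment, and the 12 genes in red have intervals above 0. Most intervals hold 0, and 71 of the 87 differences are above 0, with *Vamp1* highest at 0.63.

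Late responses were few, and the count was 0 without bTBI replicate 1 or 5 or sham replicate 1, 2 or 5 of 5 weeks and 1 in 15 further single omissions. *Spp1* (chr5:104435118-104441050), osteopontin, which marks alpha-type RGCs in the normal retina and is also made by reactive glia, changed direction. It measured 23.5 to 35.8 CPM in sham and 34.6 to 59.96 CPM in bTBI retinas at 1 week, with medians of 29.5 and 40.3. At 5 weeks it measured 13.8 to 18.3 CPM in sham and 7.83 to 13.5 CPM in bTBI retinas, with medians of 16.0 and 10.8. At 1 week 5 bTBI retinas exceeded the sham range, and at 5 weeks all 6 lay below it. The *Spp1* effect was 0.49 ± 0.12 at 1 week (limma adjusted p = 0.021) and -0.57 ± 0.10 at 5 weeks (limma adjusted p = 0.0019), and the difference of -1.06 ± 0.17 (limma adjusted p = 0.0014) was -0.96 without the myelin-rich replicate 3, which had the 59.96 CPM. *S100a10* (chr3:93555080-93564643), the annexin A2 partner, measured 16.3 to 26.0 CPM in sham and 24.5 to 33.1 CPM in bTBI retinas at 1 week, with medians of 22.1 and 26.4, and 11.2 to 12.5 CPM in sham and 9.01 to 9.55 CPM in bTBI retinas at 5 weeks, with medians of 11.7 and 9.11. The groups overlapped at 1 week and did not at 5 weeks, and the difference was -0.67 ± 0.12 (limma adjusted p = 0.0039), called in 5 of 24 fits that left out a retina. The *S100a10* effect was 0.35 at 1 week (limma adjusted p = 0.059) and -0.32 at 5 weeks (limma adjusted p = 0.0040). For both late genes the difference thus included an effect above sham at 1 week that was not called.

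Of the 42 genes called lower at 5 weeks alone, 41 were also below sham at 1 week, without passing the test there. *Coro6*, an actin-binding coronin, had -0.63 ± 0.17 at 1 week and -0.83 ± 0.07 at 5 weeks, and *Miat*, a long noncoding RNA of neurons, had -0.40 ± 0.13 and -0.64 ± 0.07. The sham means of these genes were 4.56 and 2.61 CPM at 1 week and 15.2 and 70.3 CPM at 5 weeks, so that they were measured far less deeply at 1 week. *Stmn3*, *Tppp3* and *Sparcl1* had differences of 0.03, -0.07 and -0.06, whereas *Adap1* had -0.25 ± 0.12 and *Fabp5* -0.44 ± 0.18, with adjusted p of 0.62 and 0.41 (limma). None of the 42 can be called a late gene on its own difference. Likewise the 60 genes called lower at 1 week alone, among them *Ank1*, *Htr1b*, *Spock2*, *Phf24* and *Chd3*, had 5 week effects of -0.26, -0.50, -0.18, -0.18 and -0.12 for the named ones.

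For 6 genes the effect was higher at 5 weeks at an adjusted p under 0.05 in limma, and none of these passed 0.005 there. *Glul*, glutamine synthetase, with which Müller glia clear glutamate, measured 3725 to 4054 CPM in sham and 3032 to 3626 CPM in bTBI retinas at 1 week, with medians of 3916 and 3338, and 2231 to 2449 CPM in sham and 2344 to 2524 CPM in bTBI retinas at 5 weeks, with medians of 2375 and 2394. All 6 bTBI retinas were below every sham retina at 1 week, and the groups overlapped at 5 weeks. The *Glul* difference was 0.26 ± 0.06 (limma adjusted p = 0.038). *Car2*, a carbonic anhydrase of the same cells, went from -0.08 ± 0.04 to 0.12 ± 0.03 (difference 0.20 ± 0.05, limma adjusted p = 0.045), and its later bTBI values lay wholly above the sham range. Of 17 Müller glia homeostasis genes limma and edgeR called none at either timepoint, and these 2 passed 0.05 on the difference. DESeq2 called 2 higher and 1 lower at 1 week and 1 higher at 5 weeks. The list did not share the lower 1 week values of *Glul* and *Car2*. At 1 week 12 of the 17 were above sham and 5 below, and 6 higher and 2 lower had an unadjusted p under 0.05 (limma). The list median was 0.10 at 1 week (-0.03 without the lens-rich retinas) and 0.04 at 5 weeks. The kinesin gene *Kifc2* went from -0.53 ± 0.08 to -0.11 ± 0.04 (difference 0.43 ± 0.09, limma adjusted p = 0.021). Its sham mean was 41.99 CPM at 1 week and 136 CPM at 5 weeks. The remaining 3, *Gm14698*, *Snhg14* and *Prex2*, had differences of 0.61, 0.40 and 0.36 and are named after their values were seen. Sham retinas measured 5.97 to 7.24 CPM of *Snhg14* at 1 week and 54.6 to 62.15 CPM at 5 weeks.

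Other retinal cells gave few calls. Over all genes tested, 1.27% were called higher and 0.985% lower at 1 week, and 0.0126% and 0.823% at 5 weeks. Lists this short can thus hold no call without differing from other genes. At 5 weeks all 19 rod genes were above sham, with a median of 0.06. Of these, 7 had an unadjusted p under 0.05 and none was called (limma), while DESeq2 called 1. Rod scores there ran from 0.05 to 0.09 in bTBI and from -0.06 to 0.03 in sham retinas. None of 14 cone, 16 bipolar, 30 nuclear-encoded oxidative phosphorylation or 16 clock genes was called at either timepoint (limma; over these 4 lists edgeR called none and DESeq2 called *Arr3* among cones and 1 bipolar gene at 1 week), and of 19 rod genes 1 was higher at 1 week (*Impg2*, at 0.24 ± 0.04 and 0.14 ± 0.03). The cone arrestin gene *Arr3* measured 68.2 to 93.6 CPM in sham and 54.3 to 73.0 CPM in bTBI retinas at 1 week, with medians of 85.3 and 60.3. At 5 weeks the levels were 504 to 573 CPM and 466 to 670 CPM, with medians of 543 and 524. Its difference of 0.41 ± 0.11 was not called (limma adjusted p = 0.091), and its sham mean was 83.2 CPM at 1 week and 538 CPM at 5 weeks. Of 18 amacrine and horizontal cell genes 1 was lower at 5 weeks. Of 27 basement membrane genes 2 were higher and 1 lower at 1 week, and the list median of 0.40 at 1 week was 0.16 without the lens-rich retinas. The median of 12 lens genes went from 2.01 to -0.02 (0.43 at 1 week without those 2 retinas), and no lens gene was called (limma; 4 had an unadjusted p under 0.05 at 1 week, and edgeR and DESeq2 called 0). Without both lens-rich retinas 9 of the 15 called genes were still called, and the differences of the other 6 were -0.67 for *S100a10*, -1.19 for *Unc93b1*, -0.94 for *Psmb8*, -0.85 for *H2-K1*, -0.59 for *Stat3* and -1.63 for *C1qc*.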

How the data were processed

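Retinas of 4 groups (6 each) were profiled by stranded mRNA sequencing. The authors used STAR to map the reads to GRCm38 (mm10) and featureCounts to count them per gene, removed low-count genes and scaled the counts with edgeR within each timepoint; the strand setting of the counting is not given in the sources used here. The deposited signal is thus a count divided by an effective library size, in CPM units, and each retina's values were whole multiples of 1 step (tolerance 0.01), from which reads and depth were recovered. Intervals cover the spread between retinas.

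Values were analysed as log2(CPM + 1) with limma 3.58.1 (R 4.3.3, trended prior). Fold changes are on this scale and understate the change of low genes. Effects within a timepoint came from its 12 retinas and the difference from 1 fit of all 24, with Benjamini-Hochberg adjustment over all genes tested; called means an adjusted p under 0.005. The labels give the retinas of a group as separate samples. Positions are GRCm38 (GENCODE M21). The edgeR 4.0.16 and DESeq2 1.42.0 tests on recovered reads, other scalings, pseudocounts, filters and priors, and omission of single retinas were alternatives. Named genes had the smallest p of the difference or of their response class, the smallest p of the difference within one of 43 gene lists, or were fixed by name. Of the genes in both tables, 9 were named after their values were seen. Members and lists were chosen with earlier results of these data known. Scripts were tested on simulated data.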

Additional observations from a re-analysis of the deposited data

Results flagged for a closer look

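The effect of bTBI differed between the timepoints by the interaction test in 15 genes (limma, adjusted p under 0.005). The differences of log2 fold changes, 5 weeks minus 1 week, were -0.87 for *6430562O15Rik*, -1.22 for *Gm15983*, -0.84 for *H2-D1*, -0.99 for *H2-K1*, -1.49 for *H2-Q6*, -1.60 for *Gbp2*, -1.03 for *Psmb8* and -1.22 for *Unc93b1*. They were -1.43 for *Pld4*, -1.07 for *Selplg*, -1.63 for *C1qc*, -0.65 for *Stat3*, -2.19 for *Ecel1*, -1.06 for *Spp1* and -0.67 for *S100a10*.

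Dixon's ratio, the gap of the outermost retina to the nearest one divided by the range, passed its 95% critical value in 13 of 104 groups tested, where chance gives about 1 in 20. bTBI replicate 2 at 1 week was lowest for *Gbp2* (0.728), *H2-D1* (0.672) and the score of genes higher at 1 week (0.731), and highest for *Cplx1* (0.66) and *Scn1a* (0.631), so that it was the mildest retina in both directions. bTBI replicate 1 at 5 weeks was highest for *Ifit1* (0.85), *Gfap* (0.668) and the same score (0.707). bTBI replicate 3 at 1 week, the myelin-rich retina, was highest for *Gfap* (0.846) and *Spp1* (0.692). Among sham retinas at 1 week, replicate 4 was highest for *H2-D1* (0.708), replicate 1 was highest for *Cplx1* (0.671) and replicate 6 was lowest for *Car2* (0.746).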

How the results depend on the processing

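The 15 called differences kept their sign in every setting that could be fitted, and 9 of them were called in all 24 omissions of 1 retina, whereas *S100a10* was called in 5, *Unc93b1* and *C1qc* in 6, *H2-K1* in 11, *Psmb8* in 12 and *Stat3* in 22. Counts moved more. The number of called differences, 15, was 9 with at least 5 CPM in at least 12 retinas (a filter added after seeing the data, since that of 1 CPM removed 0 genes), 31 with 1 variance per group, 57 with DESeq2 and 111 at 0.05, and ran from 9 to 111 over single omissions. The 12 resolved genes became 7, 28, 49 and 99 in the same settings, and 7 to 106 over omissions. The 88 persisting genes became 28 without the variance trend, 37 without both lens-rich retinas, 163 with DESeq2 and 221 at 0.05, and 57 to 104 over omissions. The 2 late genes became 1 with scaling by the total, with the replicate block or without the lens-rich retinas, 0 without the trend or with calls from a single fit of 24 retinas, and 0 to 2 over omissions. The 336 genes changed at 1 week became 685 with the single fit, 112 without the lens-rich retinas and 704 with DESeq2, and 189 to 486 over omissions. The 133 changed at 5 weeks became 56 without the trend, 75 with the single fit and 253 with DESeq2, and 88 to 163 over omissions. The cause of these changes was not tested. Same-numbered bTBI and sham retinas shared only a number (correlation of deviations -0.25 to 0.54 at 1 week and -0.11 to 0.15 at 5 weeks, and 1 of 12 pairs of retinas correlated best with its own number); with the replicate block 14 differences were called, 12 of them shared with the fit without it.

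With 6 retinas per group, the median half-width of 0.20 (log2) for persisting genes limits how small a return towards sham could be seen, and genes of a few CPM were measured less precisely.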
